A study of Mus musculus with 6 samples.

Results

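The Myc and Max network was followed by 10 genes chosen by symbol and not by their values: Myc, Mycn, Max, Mxd1, Mxd3, Mxd4, Mxi1, Mnt, Mga and Mlx. They were 10 of 20261 genes for which the platform annotation gave at least 1 array feature with exactly 1 gene symbol. RNA came from liver of 24-month-old C57BL/6 mice of genotype SRSF3HKO, in which hepatocytes lack the splicing factor Srsf3. The 3 non-tumour arrays (numbers 405, 483 and 623) held untreated non-tumorous liver of such mice, and the 3 tumour arrays (numbers 405, 483 and 616) held untreated hepatocellular carcinoma of such mice. All groups thus carried the deletion, and the driver of the deletion is not given in the sources used here. Whether a number marks an animal is not stated either, and p-values measure the spread between these samples, which may be technical. In pieces of tissue, fewer cells of a type and less RNA per cell cannot be told apart.

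Myc is a transcription factor with a basic helix-loop-helix leucine zipper that binds DNA as a dimer with Max, chiefly at the E-box, and activates genes of ribosome biogenesis, metabolism and cell growth. The Mxd proteins, Mxi1 and Mnt compete for Max and repress the same kind of site by recruiting the Sin3 and histone deacetylase corepressor. Mlx is a relative of Max that pairs with some Mxd proteins, with Mnt and with the glucose-responsive factors ChREBP (Mlxipl) and MondoA (Mlxip), and Mga is a large scaffold that ties Max to a Polycomb repressor complex. Myc is low in the resting adult liver, is induced when the liver regenerates and is often raised in liver cancer.

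Several network genes carry the letters of the E-box near a start. RefSeq promoter windows (GRCm38.p6), which run from 250 bases before a start of a gene to 50 after it, were matched for 9 members, all but Myc. The E-box CACGTG, which reads the same on both strands, was found in 4 of these 9 genes (44.4%), against 7.15% of 32851 windows of this length and 10.5% of the 13166 tested genes with a window. Each of the 4 windows held it once. The sites are shown because they mark which members carry the letters that Myc, Max and Mlx dimers bind, with the E-box in capitals.
Mnt, chr11:74830789-74830818, plus strand: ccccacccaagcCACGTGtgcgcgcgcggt
Mlx, chr11:101087238-101087267, plus strand: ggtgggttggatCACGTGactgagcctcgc
Mxd4, chr5:34187912-34187941, minus strand: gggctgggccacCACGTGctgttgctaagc
Max, chr12:76962234-76962263, minus strand: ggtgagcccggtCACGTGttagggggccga
Counted from the start that the window takes, the E-box began 123 bases before it in Mnt, 40 in Mlx and 219 in Mxd4. In Max it lay across that start, beginning 3 bases before it. The mouse gene table puts the start of the gene elsewhere for Mnt (74830806), Mlx (101086707) and Max (76962323). By that table the E-boxes of Mlx and Max lie inside the gene and that of Mnt at its edge. A match says only that these letters are in the window. No match was found in the windows of Mycn, Mxd1, Mxd3 and Mga, or in the 3 windows of Mxi1.

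The arrays differed in brightness, with median intensities from 83.6 to 197 before further normalization, so all levels below are log2(quantile-normalized intensity + 16), where quantile normalization gives the arrays 1 distribution. Differences are tumour minus non-tumour from limma with Benjamini-Hochberg adjustment over 16824 genes, with the moderated SE (n = 3 each). Srsf3 itself had means of 10.20 in non-tumour and 10.46 in tumour; no source used here says whether its feature lies in the deleted stretch, and it therefore does not check the deletion. Non-tumour 623 differed from all other samples in Xist, which is transcribed from an inactive X: its level was 5.19, against 10.60 to 12.31. Eif2s3y, a gene of the Y chromosome, went the other way, at 8.75 in non-tumour 623 and 4.18 to 5.13 elsewhere. By these genes non-tumour 623 was male and the other samples female, so sex was not balanced between the groups. The part of sex in the differences was not tested. Tumour 405 stood apart in cell markers: the summed intensity of 6 hepatocyte genes was 32576 there, below the 41791 to 45733 of the remaining samples. The summed intensity of 10 Kupffer cell genes was lowest there too, at 1755, against 4330 to 16675 elsewhere. The hepatocyte sum depended on the scale: after median centring its lowest value, 28714, was that of a non-tumour array, and the lowest tumour had 40163. The labelled liver origin was plain in all samples, with Alb, the albumin gene, at 13.31 ± 0.04 in non-tumour and 13.30 ± 0.06 in tumour (SD, n = 3 each). Quantile normalization gives every array the same value at a rank. Alb thus took 13.3368 on non-tumour 405, non-tumour 623, tumour 483 and tumour 616, and its small SDs do not measure a spread between samples.

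No member of the network passed the test between tumour and non-tumorous liver. Limma called 0 of the 10 members at an adjusted p under 0.05, beside 0 of 16824 genes (0%), for which the smallest adjusted p was 0.915. At an unadjusted p under 0.05 it called 0 members, beside 3.67% of all genes (2.67% higher and 1% lower in tumour). All 10 of the members' 95% intervals held 0, the narrowest that of Mxd3 (-0.64 to 0.29) and the widest that of Mxd4 (-0.78 to 1.22), and the number of arrays limits the precision. The 5 members with a positive difference were Mxi1, Myc, Mxd4, Max and Mga, and the 5 with a negative one were Mnt, Mycn, Mxd1, Mxd3 and Mlx. The members' median difference was 0.00, against -0.05 for all genes. On the values as deposited limma again called 0 members, beside 58 of 16824 genes (0.345%), and 1 member, Mycn, had an unadjusted p under 0.05, with a negative difference, where 8.56% of all genes did (0.535% higher and 8.02% lower). In that fit limma took the variance from the intensity trend alone, so its p-values leave out the spread of the single gene.

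**Figure D1:**
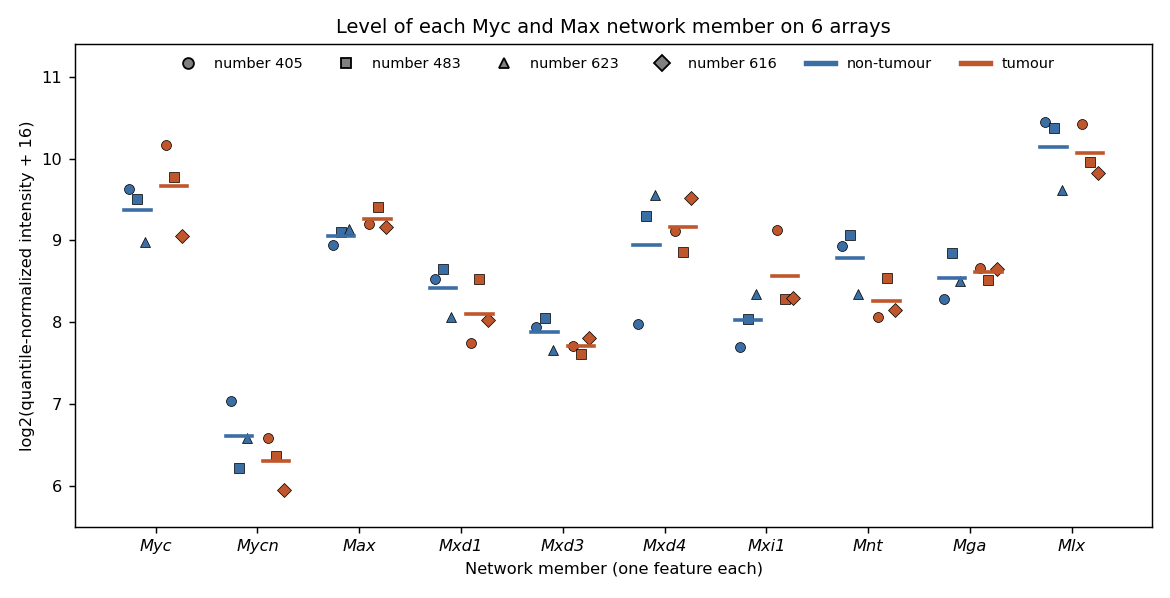
Levels of the 10 network members on each array, as log2(quantile-normalized intensity + 16), with non-tumour arrays in blue and tumour arrays in orange, marker shapes for the sample numbers and bars at the group means. The groups overlap in every member except Max, and levels of different genes are not comparable because they come from different features.

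Myc measured 9.63 (405), 9.50 (483) and 8.98 (623) in non-tumorous liver and 10.17 (405), 9.77 (483) and 9.05 (616) in carcinoma. The groups overlapped, because tumour 616 lay below 2 of the 3 non-tumour arrays and close to non-tumour 623, the lowest. Mean levels of 9.37 ± 0.34 and 9.66 ± 0.56 (SD, n = 3 each) gave a difference of 0.29 ± 0.36 (SE, limma adjusted p = 0.915, 95% interval -0.53 to 1.11). Tumour 405 held much of this difference, which was 0.04 without it and 0.59 without tumour 616. It was 0.11 without non-tumour 623. After median centring, which only shifts each array, Myc differed by 0.63, beside a median gene at 0.06. Myc was then the 1 member of 10 without overlap, where 6.38% of all genes had none. As deposited Myc differed by 0.09, with overlap, beside a median gene at -0.48.

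Mycn, the fetal and neural relative of Myc, gave 7.03 (405), 6.22 (483) and 6.59 (623) in non-tumorous liver and 6.58 (405), 6.37 (483) and 5.95 (616) in carcinoma. Non-tumour 405 was highest and tumour 616 lowest, with the other 4 arrays mixed. Mycn was dim, with a mean deposited intensity of 77.6 where the filter asked for 62.3. Tumour 405 (48.4), tumour 616 (31.2) and non-tumour 483 (53.2) lay below that cut. Tumour 483 (70.5), non-tumour 405 (156) and non-tumour 623 (107) lay above it. The difference of -0.31 ± 0.26 did not pass (SE, limma adjusted p = 0.915, interval -0.90 to 0.27) and was -0.10 without non-tumour 405 and -0.14 without tumour 616. Its size depended on the constant added before the log2, being -0.38 with a smaller constant and -0.21 with a larger one. As deposited it was -0.82, beside a median gene at -0.48 (adjusted p = 0.463). The third family gene, Mycl, overlapped as well, with 6.82 (405), 8.75 (483) and 8.14 (623) in non-tumorous liver beside 8.32 (405), 7.93 (483) and 9.12 (616) in carcinoma.

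Max, the partner that Myc and its antagonists share, registered 8.94 (405), 9.10 (483) and 9.13 (623) in non-tumorous liver and 9.20 (405), 9.41 (483) and 9.17 (616) in carcinoma. The groups did not overlap, the carcinomas being higher, although non-tumour 623 and tumour 616 were almost level. Max was the 1 member of 10 without overlap, where 7.83% of all genes had none (3.94% higher and 3.89% lower in tumour). The difference was 0.20 ± 0.24 (SE, limma adjusted p = 0.915, interval -0.36 to 0.76), and it was -0.09 as deposited, where the groups overlapped and the median gene stood at -0.48. The groups also overlapped after median centring, when quantile normalization ran over all features of the table, and when a second, dim feature of Max was averaged in. The SD within groups was 0.10 in non-tumour and 0.13 in tumour, and only 4.47% of genes had a pooled one as small.

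Mlx read 10.45 (405), 10.37 (483) and 9.62 (623) in non-tumorous liver and 10.42 (405), 9.96 (483) and 9.82 (616) in carcinoma. Non-tumour 623 was lowest and non-tumour 405 highest, with all carcinomas between them. The difference was -0.08 ± 0.32 (SE, limma adjusted p = 0.964, interval -0.81 to 0.66). Its sign was not settled: it was 0.33 after median centring, 0.07 without non-tumour 405, 0.04 without non-tumour 483, 0.04 without tumour 616 and -0.35 without non-tumour 623.

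Among the antagonists, Mnt had the most negative difference and Mxi1 the most positive. Mnt, the widely expressed antagonist, measured 8.94 (405), 9.06 (483) and 8.34 (623) in non-tumorous liver and 8.07 (405), 8.54 (483) and 8.15 (616) in carcinoma. Only non-tumour 623 reached into the range of the tumours, of which tumour 483 lay above it. Mean levels of 8.78 ± 0.38 and 8.25 ± 0.25 (SD, n = 3 each) gave a difference of -0.53 ± 0.29 (SE, limma adjusted p = 0.915, interval -1.18 to 0.13). Its sign was the same under every alternative tried, from -0.85 as deposited to -0.31 after median centring, and with 1 array left out it was lowest when non-tumour 623 was dropped (-0.70) and closest to 0 when non-tumour 483 was (-0.39). As deposited the tumours were lower without overlap for Mnt and Mxd3, 2 of 10 members, where 11.8% of all genes had none (11.7% lower and 0.137% higher). Tumour 405, lowest in Mnt, was also lowest in the summed Kupffer cell and hepatocyte markers given above, whose part in the level of Mnt was not tested.

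Mxi1 gave 7.70 (405), 8.04 (483) and 8.35 (623) in non-tumorous liver and 9.13 (405), 8.28 (483) and 8.29 (616) in carcinoma. Tumour 405 stood well above all other arrays, and non-tumour 623 lay above the other two tumours. The difference of 0.54 ± 0.31 did not pass (SE, limma adjusted p = 0.915, interval -0.19 to 1.26). It was 0.26 without tumour 405 and 0.06 as deposited. A second, dim feature of Mxi1 had a mean intensity of 16.2 and was left out of the test; with it averaged in, the difference was 0.16.

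Mxd1, an antagonist that is induced as cells differentiate and is abundant in myeloid cells, measured 8.52 (405), 8.65 (483) and 8.06 (623) in non-tumorous liver and 7.75 (405), 8.53 (483) and 8.03 (616) in carcinoma. Tumour 405 was lowest, and tumour 483 lay within the non-tumour range. The difference was -0.31 ± 0.29 (SE, limma adjusted p = 0.915, interval -0.98 to 0.35) and was -0.13 without tumour 405. Tumour 405 also had the lowest summed Kupffer cell markers, as given above, and the lowest of 6 neutrophil genes, at 357 against 389 to 2017 elsewhere. Over the marker lists 9 of 10 Kupffer cell genes and 1 of 6 neutrophil genes had negative differences. Their part in the level of Mxd1 was not tested.

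Mxd3, the antagonist found in dividing cells, registered 7.94 (405), 8.05 (483) and 7.67 (623) in non-tumorous liver and 7.71 (405), 7.61 (483) and 7.80 (616) in carcinoma. Non-tumour 623 again lay among the tumours. The difference was -0.18 ± 0.20 (SE, limma adjusted p = 0.915, interval -0.64 to 0.29), and it was -0.094 without non-tumour 483. As deposited it was -0.64, beside a median gene at -0.48. Mxd4, an antagonist of resting and differentiated cells, read 7.97 (405), 9.30 (483) and 9.55 (623) in non-tumorous liver and 9.12 (405), 8.85 (483) and 9.52 (616) in carcinoma. Non-tumour 405 lay far below the other arrays, and its value set the sign: the difference was 0.22 ± 0.44 (SE, limma adjusted p = 0.932, interval -0.78 to 1.22) with it and -0.27 without it. As deposited the difference of Mxd4 was -0.16, where the median gene stood lower, at -0.48. Mxd4 had the widest range of the members within non-tumour, 1.58 log2 units, and 89.4% of genes had a pooled SD within groups no larger than its own.

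Mga, the scaffold of the Max-containing Polycomb complex, gave 8.28 (405), 8.84 (483) and 8.50 (623) in non-tumorous liver and 8.66 (405), 8.52 (483) and 8.65 (616) in carcinoma. The tumours lay close together inside the non-tumour range. The difference was 0.07 ± 0.25 (SE, limma adjusted p = 0.960, interval -0.50 to 0.64) and turned negative as deposited (-0.31), with a second dim feature averaged in (-0.03), with array weights (-0.09) and without non-tumour 405 (-0.07).

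**Figure D2:**
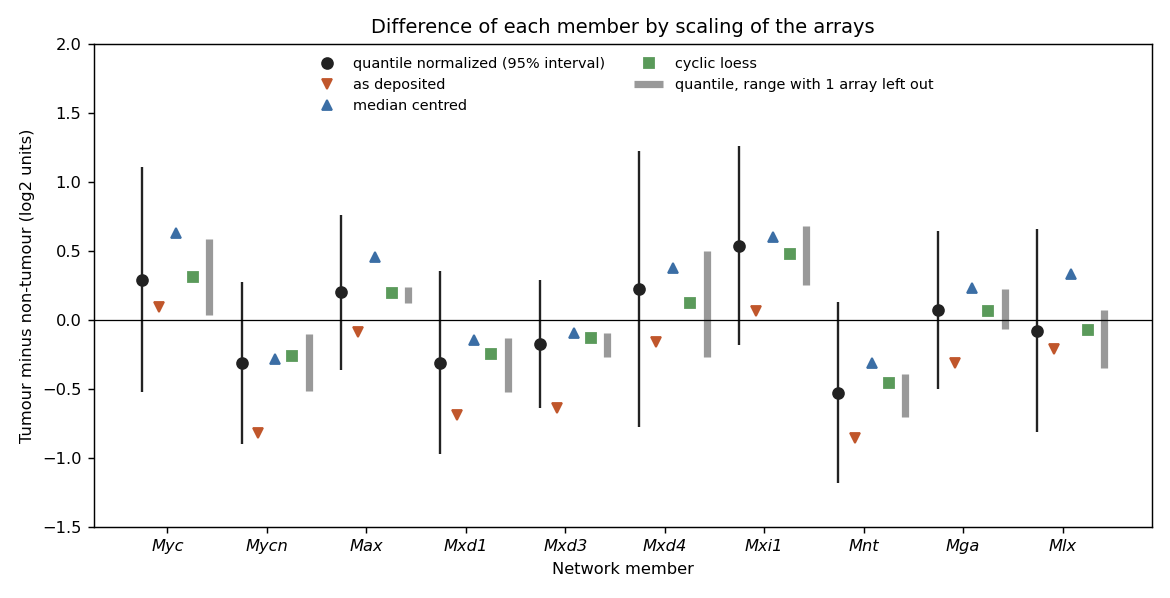
Tumour minus non-tumour difference of each member in log2 units after quantile normalization (black, with its 95% interval), as deposited, after median centring and after cyclic loess, with grey bars for the range when 1 array at a time is left out. Every black interval holds 0, and Mnt, Mxd1, Mxd3 and Mycn are negative and Myc and Mxi1 positive at every point shown.

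Both arrays that stood apart moved the differences. Without non-tumour 623 the difference was 0.11 for Myc, 0.24 for Max, -0.31 for Mycn and -0.35 for Mlx. Among the antagonists it was then -0.70 for Mnt, -0.45 for Mxd1, -0.27 for Mxd3, 0.50 for Mxd4 and 0.65 for Mxi1, and it was 0.05 for Mga. With that array left out 4 of 10 members did not overlap, beside 31.5% of all genes. Without tumour 405 the difference was 0.04 for Myc, 0.23 for Max, -0.46 for Mycn and -0.25 for Mlx. Among the antagonists it was then -0.43 for Mnt, -0.13 for Mxd1, -0.18 for Mxd3, 0.24 for Mxd4 and 0.26 for Mxi1, and it was 0.04 for Mga.

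Profiles over the 6 arrays were compared by the root-mean-square distance between log2 values, each gene taken relative to its own mean. Of all pairs of members Mxd1 and Mnt were nearest, at 0.15 log2 units: both were highest in non-tumour 483 and lowest in tumour 405. Mlx was the member nearest to Myc (0.27), and 1.06% of all other genes were nearer to Myc than Mlx was. Both were low in non-tumour 623 and tumour 616. Max was 0.40 from Myc, with 21.9% of genes nearer, and Mnt was 0.55 from Myc, with 65.1% nearer. The genes most like Myc over the 6 arrays were Znrd1 (0.10), Prelid2 (0.11), Sgms1 (0.11), Atf4 (0.12) and Zfp948 (0.12). These distances describe 6 arrays that share their normalization, and the distance is small between any genes that vary little.

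**Figure D3:**
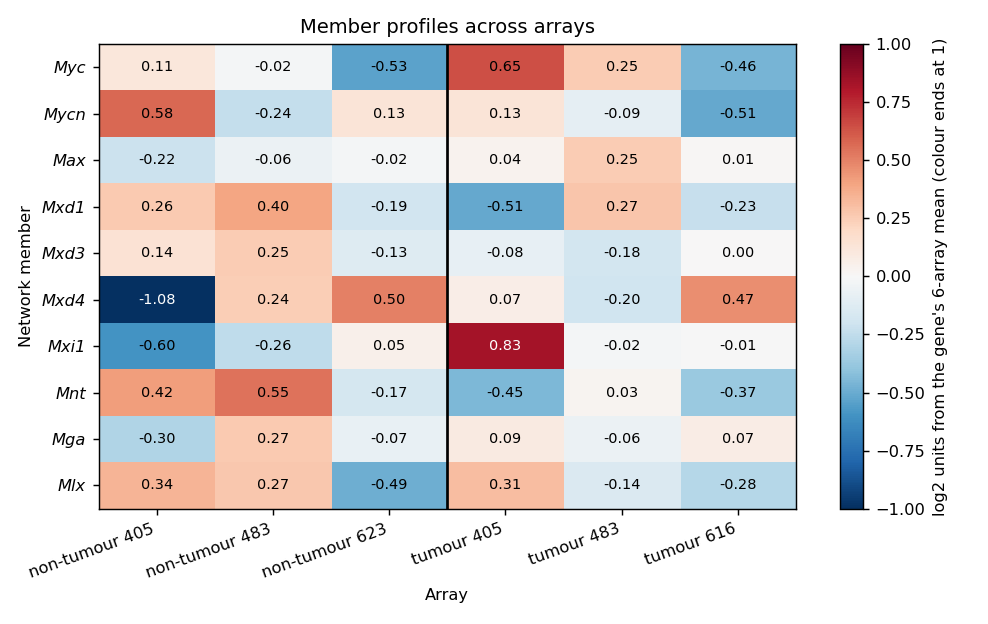
Level of each member on each array relative to the gene's own 6-array mean, in log2 units, with red above and blue below the mean and non-tumour arrays left of the line. Tumour 405 holds the highest values of Myc (0.65) and Mxi1 (0.83) and the lowest of Mnt (-0.45) and Mxd1 (-0.51), and Mxd4 is lowest in non-tumour 405 (-1.08).

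Genes that Myc activates in ribosome biogenesis and translation had positive differences in most cases, but limma called 0 of the 27 tested (2 in the positive and 0 in the negative direction with no adjustment of p). Of these genes 21 had a positive difference (77.8%, against 43.6% of all genes), and the list's median was 0.10 against -0.05 for all genes. The list's median was 0.059 without tumour 405 and 0.17 without non-tumour 405, and -0.26 as deposited, where that of all genes was -0.48. The summed intensity of the 27 genes came to 10975 (405), 10292 (483) and 9988 (623) in non-tumorous liver and 13810 (405), 11226 (483) and 11226 (616) in carcinoma. The tumours lay above the non-tumour arrays on this sum, with tumour 405 the highest, also after cyclic loess and after quantile normalization over all features, whereas the groups overlapped as deposited and after median centring. The sum weighs bright genes most: the mean deviation per gene from its own 6-array mean overlapped between the groups, with non-tumour 405 (-0.00033) above tumour 483 (-0.012) and tumour 616 (-0.0023), and only tumour 405 (0.26) stood apart. The first genes of the list differed little: Ncl, which encodes nucleolin, by 0.07 ± 0.28 (SE), Npm1, nucleophosmin, by 0.22 ± 0.44, Fbl, fibrillarin, by 0.15 ± 0.23, and Nop56, a box C/D ribonucleoprotein subunit, by 0.04 ± 0.15. The genes past the unadjusted threshold, named after their values were seen, were Gnl3, nucleostemin (0.96 ± 0.29), and Nop58, the partner of Nop56 (0.75 ± 0.27), both with a limma adjusted p of 0.915, as for every gene named below for its unadjusted p. An E-box stood in the window of 8 of the 23 genes of this list that had one (34.8%).

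Myc targets in metabolism and growth were split, with 15 of 24 positive (62.5%, against 43.6% of all genes) and a median of 0.05. The median was 0.013 without non-tumour 623 and 0.12 without non-tumour 483. As deposited it was -0.31, where that of all genes was -0.48. Limma called 0 of these targets, with 1 higher and 0 lower unadjusted, beside 2.67% and 1% of all genes. The higher one was Tfam, the mitochondrial transcription factor (1.15 ± 0.50, SE). Odc1, the first enzyme of polyamine synthesis, differed by 0.43 ± 0.23, Ldha, lactate dehydrogenase A, by 0.30 ± 0.41, Cad, which starts pyrimidine synthesis, by 0.23 ± 0.30, and Srm, spermidine synthase, by 0.27 ± 0.29. Of the genes that Myc represses, 11 of 16 were positive (68.8%), with a median of 0.33 (0.04 as deposited, where that of all genes was -0.48). Tumour 483 held most of this: the median was 0.063 without it, and 0.50 without tumour 405. Limma called 0 of them, with 2 higher and 0 lower unadjusted. Gadd45b, a stress-induced growth arrest gene, differed by 1.93 ± 0.46 (SE), and Ccng2, a cyclin of resting cells, by 1.02 ± 0.39. The cell cycle inhibitors Cdkn1a, Cdkn2b and Cdkn1b differed by 0.48 ± 0.64, -0.01 ± 0.32 and 0.58 ± 0.38, and Gadd45a by 0.59 ± 0.31. Cdkn1a spanned 8.58 to 10.85 in non-tumour and 9.69 to 11.39 in tumour.

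**Figure D4:**
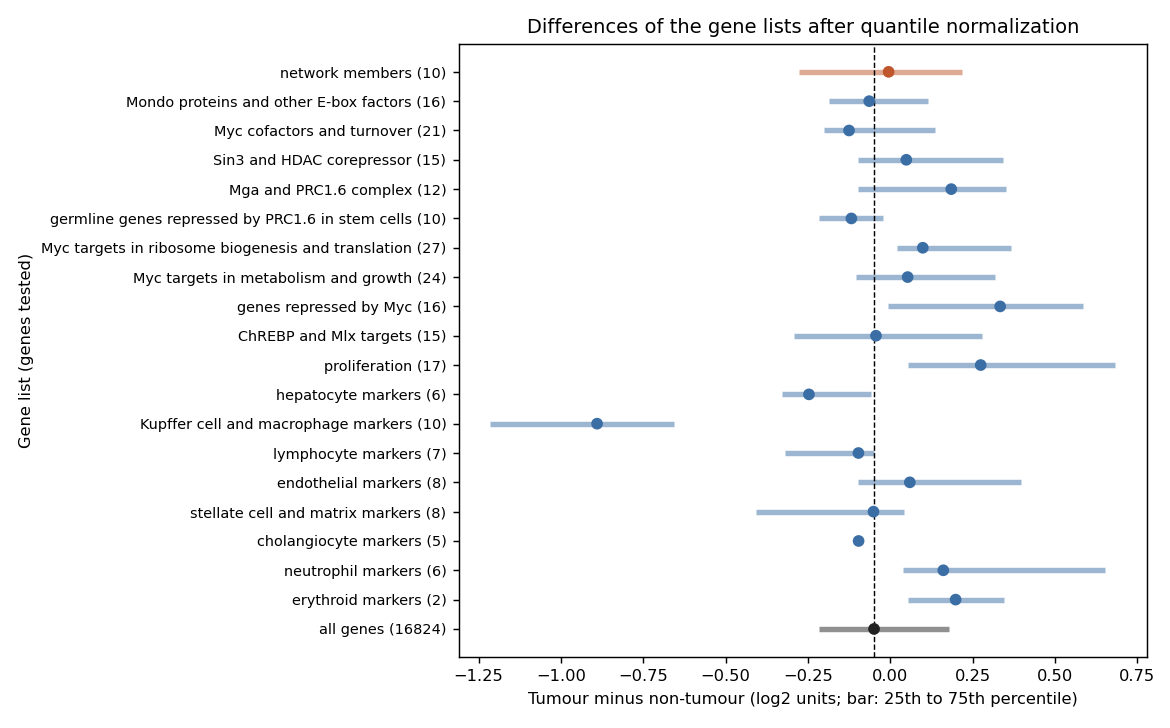
Median (point) and 25th to 75th percentile (bar) of the tumour minus non-tumour difference, in log2 units after quantile normalization, for the network members, the other gene lists and all 16824 genes, whose median is the dashed line. The members' median sits at 0.00 and that of Kupffer cell genes at -0.89, the furthest from the line.

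The machinery that the members work with showed no calls, and with 1 array left out its medians moved across or close to 0. They then ran from -0.19 to 0.032 for the E-box factors, -0.32 to 0.11 for the ChREBP and Mlx targets and -0.095 to 0.013 for the Myc cofactors. The highest value was that without non-tumour 623 for the E-box factors, without non-tumour 405 for the ChREBP and Mlx targets and without tumour 405 for the cofactors. Of the Mondo proteins and other E-box factors 6 of 16 were positive (median -0.06), and limma called 0, with 1 higher and 2 lower unadjusted: Usf1, an upstream stimulatory factor (0.59), Mitf, the melanocyte and lysosome factor (-0.68), and Srebf1, the regulator of lipid synthesis (-0.90). Mlxipl, which encodes ChREBP, differed by -0.12 ± 0.27 (SE) and Mlxip by -0.24 ± 0.32, the partners through which Mlx acts on glucose-responsive genes. Of the ChREBP and Mlx targets 7 of 15 were positive (median -0.04). Pklr, the liver pyruvate kinase, differed by -0.08 ± 0.71, Txnip, a glucose-induced inhibitor of thioredoxin, by 0.13 ± 0.34, Arrdc4, its arrestin relative, by -0.04 ± 0.32, and Khk, ketohexokinase, by 0.36 ± 0.34. Limma called 0 of these targets, with 0 higher and 1 lower unadjusted, Acly, ATP-citrate lyase (-1.13 ± 0.44, SE). Of the Myc cofactors and turnover factors 10 of 21 were positive (median -0.13), with 0 called and 1 higher unadjusted, the mitotic kinase Aurka (0.92 ± 0.38). Fbxw7, the ubiquitin ligase subunit that targets Myc, differed by -0.16 ± 0.20, Trrap, a scaffold of Myc-bound acetyltransferases, by -0.19 ± 0.34, Zbtb17, the Myc partner Miz1, by -0.18 ± 0.21, and Kat5, an acetyltransferase, by 0.25 ± 0.27.

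The corepressor that Mxd proteins and Mnt recruit was split evenly, with 8 of 15 genes of the Sin3 and histone deacetylase list positive and a median of 0.05. Sin3a and Sin3b, its scaffolds, differed by -0.08 ± 0.24 and 0.19 ± 0.39 (SE), and the deacetylases Hdac1 and Hdac2 by -0.06 ± 0.16 and 0.34 ± 0.34. In the list of the Polycomb complex that holds Mga, 8 of 12 genes were positive (median 0.19). Its subunits Pcgf6, L3mbtl2 and E2f6 differed by 0.28 ± 0.39, 0.38 ± 0.29 and 0.01 ± 0.28. Germline genes that this complex silences in stem cells had 2 of 10 positive (median -0.12). Ddx4, a germ cell RNA helicase, differed by 0.01 ± 0.21 and Dazl, a germ cell RNA-binding protein, by -0.13 ± 0.31. With 1 array left out, the medians ran from -0.024 (without tumour 616) to 0.30 (without non-tumour 623) for the corepressor, and from 0.0059 (without tumour 405) to 0.28 (without tumour 483) for the Polycomb list. For the germline genes the lowest median was -0.22, with non-tumour 483 left out, and the highest was 0.026, with non-tumour 405 left out. Limma called 0 genes in these lists, also at an unadjusted p under 0.05. The E-box was found in the windows of 9 of the 12 germline genes (75%), the highest share of any list. Not all of these 12 were tested. Of the 10 tested, 20% had positive differences, against 43.6% of all genes, and their median of -0.12 stood beside -0.05 for all genes.

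Over all tested genes with a window, the median difference was -0.02 in 1388 genes with an E-box and -0.05 in 11778 without it. Positive differences made up 47.3% of the former and 43.3% of the latter. Tumours were higher without overlap in 5.84% of the former and 3.70% of the latter, and lower without overlap in 4.11% and 3.97%. The median level in non-tumour was 8.17 with the E-box and 7.89 without it, and the part of this difference in level was not tested. Of the members that carry it, Mnt and Mlx had negative differences and Max and Mxd4 positive ones.

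Proliferation genes, with which Mxd3 is known to be expressed, had 14 of 17 positive (82.4%, against 43.6% of all genes) and a median of 0.27. That median was -0.25 as deposited, where that of all genes was -0.48. Limma called 0 of the 17, with 1 higher unadjusted, where 2.67% of all genes were. It was the spindle checkpoint kinase Bub1 (1.10 ± 0.46, SE). Mki67, a marker of cycling cells, differed by -0.17 ± 0.50, Top2a, a topoisomerase of dividing cells, by 0.74 ± 0.39, and the mitotic cyclins Ccnb2 and Ccna2 by 0.50 ± 0.63 and 0.30 ± 0.48. The summed intensity of the 17 genes came to 4506 (405), 2147 (483) and 4124 (623) in non-tumorous liver and 4697 (405), 3370 (483) and 5130 (616) in carcinoma. Non-tumour 483 was lowest on this sum, while Mxd3 was highest there, and the list's median was 0.024 without that array, 0.10 without tumour 616 and 0.45 without non-tumour 623. Of the other markers, hepatocyte genes had a median of -0.25, Kupffer cell genes -0.89, lymphocyte genes -0.10, endothelial genes 0.06, stellate cell and matrix genes -0.05, cholangiocyte genes -0.10, neutrophil genes 0.16 and erythroid genes 0.20. Single arrays moved these: the median was -0.043 for hepatocyte and -0.33 for Kupffer cell genes without tumour 405, and -1.64 for Kupffer cell genes without non-tumour 405. The median of lymphocyte genes then ran from -0.36 to -0.010, and those of the endothelial, stellate cell, cholangiocyte, neutrophil and erythroid genes each took both signs over the 6 arrays left out in turn. Limma called 0 genes in these lists, with 1 higher unadjusted, the endothelial sialomucin gene Emcn, with means of 8.07 in non-tumour and 9.67 in tumour.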

How the data were processed

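The 6 liver RNA samples were measured on Affymetrix arrays, 1 array each. The deposited values are linear intensities that the authors made with PLIER (per the labels) against mm9, per the submitters' processing notes; the version is not given in the sources used here. Of 238609 features, the platform annotation gave 24343 exactly 1 gene symbol, and 23782 of these matched the mouse gene table by Entrez number. Those features were quantile-normalized and taken as log2(intensity + 16), which understates differences of dim genes. Features with a mean deposited intensity of at least 62.3 (the 25th percentile) were kept, and the median feature gave the gene value. All 10 members passed through 1 feature each, while a dim second feature of Max, Mxi1 and Mga did not. Differences between the groups came from limma 3.58.1 under R 4.3.3 (its trended eBayes moderation, without covariates), a procedure first tested on simulated data. The deposited scale was not the main one because the array medians differed. The members and the gene lists, whose first 4 tested genes are named along with the 5 genes nearest to Myc, were chosen with earlier results of these data known, and a few others were named after their values were seen. Numbers 405 and 483 occur in both groups; no label says that they pair samples. With 3 arrays a group, the smallest p an exact two-sided permutation test allows is 0.1.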

Additional observations from a re-analysis of the deposited data

How the results depend on the processing

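No network member was called under any of the 13 alternatives or with any of the 6 arrays left out. In the whole table, too, 0 genes were called with any array left out. The same held under every alternative except the deposited scale and the fixed replicate block given below. The signs of Myc, Mycn, Mxd1, Mxd3, Mxi1 and Mnt were the same in all settings (Mycn failed the filter at the median intensity). As deposited, 58 genes were called in the whole table, with variances from the intensity trend alone. On that scale Max stood at -0.087, Mxd4 at -0.16 and Mga at -0.31, beside a median gene at -0.48. The members' median was -0.26, and 2 members did not overlap, beside 11.8% of all genes. After median centring the members' median was 0.28, beside 0.06 for all genes, and Mlx stood at 0.33. The members' median lay 0.22 above that of all genes both as deposited and after median centring. Without a filter on dim features Mga stood at -0.028 and 0 members were without overlap, as with quantile normalization over all features. With array weights Mga stood at -0.094, and Mnt alone of the members passed an unadjusted p of 0.05, as 12.9% of all genes did (limma adjusted p = 0.361). Without non-tumour 623 Mnt alone of the members passed it too, as 10.3% of all genes did (limma adjusted p = 0.470). With 1 array left out, 1 to 4 members did not overlap (4 without non-tumour 623), beside 12.6% to 31.5% of all genes, Mxd4 ran from -0.27 to 0.50, Mga from -0.066 to 0.22 and Mlx from -0.35 to 0.073. The numbers were not taken as pairs because no label says that they pair samples. Deviations from the group means correlated at 0.29 between the arrays numbered 405 and at -0.01 between those numbered 483. Between unlike numbers they ran from -0.34 (tumour 616 and non-tumour 405) to 0.25 (tumour 616 and non-tumour 483). These correlations of few arrays cannot decide whether a number marks an animal. With the number as a fixed replicate block, on the 4 arrays numbered 405 and 483 only, 2 genes of the whole table and 0 members were called. In that setting 5 members and 38% of all genes did not overlap. With a random replicate block 0 genes were called. The causes were not tested.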
